A study of Drosophila melanogaster with 6 samples.

Results

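The transposons and satellites outside the telomeres that were listed after HP1a RNAi in Drosophila S2 cells comprised 44 repeat consensus features, out of 535 features listed in that comparison and 582 listed in either comparison of the series. They were taken as every row with values whose identifier was not a FlyBase gene number, leaving out HETA and TAHRE, which maintain the telomeres. Classes were assigned from the suffix of the name or, where it has none, from general knowledge of the named element. This gave 28 rows of 21 LTR retrotransposons, 14 rows of non-LTR retrotransposons, 1 row of a DNA transposon and 1 row of a satellite, or 37 elements in all. A feature was listed only where the authors' adjusted p was below 0.05, so the rows are the repeats that passed, and the number of repeats tested is not known here. Being listed is therefore not a finding about them, and the share of all repeats that responded cannot be given.

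Polyadenylated RNA was sequenced from S2 cells, an embryonic fly line with haemocyte-like properties, after 5 days of RNAi with transfected double-stranded RNA against GFP, HP1a or dKDM4A, with 2 libraries in each of 3 groups. GFP, a jellyfish gene that flies lack, served as the control. All groups were grown at 25 degrees in medium with 10% serum, and the labels name no other difference between them. Whether replicate libraries stem from separate cultures is not stated in the labels, so tests measure the spread between libraries, which may be technical. Normalized counts of the target, the HP1a gene, were 21963 and 25507 in GFP RNAi and 12834 and 15705 in HP1a RNAi, 1.66-fold lower. These are RNA counts at the gene, and HP1a protein was not measured here, so the depletion reached is not known. Of the 44 repeats 0 were listed for the libraries labelled dKDM4A RNAi, where 90 of 7533 features tested (1.19%) were listed. That target goes against its label: Kdm4A had 842 and 843 normalized counts in GFP RNAi and 2141 and 2675 in the libraries labelled dKDM4A RNAi, 2.86-fold higher, so the count of 0 refers to the libraries as labelled, not to a measured loss of Kdm4A RNA. The values below are for HP1a RNAi and its GFP control.

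LTR retrotransposons resemble retroviruses: an internal part encodes the structural protein and the reverse transcriptase, and identical long terminal repeats (LTRs) at both ends carry the promoter and the polyadenylation signal. In the repeat names, the internal part ends in I and the terminal repeat in LTR, and each part is a feature of its own. Many non-LTR retrotransposons have an internal promoter and are transcribed as 1 unit. Non-LTR retrotransposons copy themselves into a target site, whereas DNA transposons move by excision. Satellites are tandem arrays of short units, mostly in pericentromeric heterochromatin. HP1a binds histone H3 methylated at lysine 9 in that chromatin, where many copies of all these repeats lie.

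After HP1a RNAi 41 of the 44 repeats were higher and 3 were lower. The largest increases were in the LTR element Accord2 and in the non-LTR elements G and G6, and the decreases were in the LTR element Idefix and the non-LTR element Ivk. The median change of the 44 repeats on the authors' log2 scale was 0.85, beside 0.40 for all 535 listed rows. The median ratio of mean normalized counts was 1.89-fold, beside 1.33-fold. Among higher rows alone, the median change on the authors' log2 scale was 0.91 for the 41 repeats and 0.63 for the 305 genes. The authors' test listed 4.18% of 8287 features tested as higher and 2.28% as lower. Among all listed rows 64.7% were higher and 35.3% lower, and among the repeats 93.2% were higher. An increase of at least 2-fold in mean normalized counts was reached by 20 of the 44 repeats (45.5%), and by 20.4% of all listed rows. Centring on the median listed gene, a shift of 0.38 on the log2 scale, was chosen after seeing the data. Limma then called 29 repeats higher and 3 lower, and BLASTOPIA_I turned to -0.000613. The listed genes were themselves selected as changed, 305 of 489 as higher, so centring on them does not test the scaling of libraries.

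All 44 repeats also passed limma on log2(normalized count + 1), with adjustment over all 535 listed rows, at an adjusted p below 0.05. Limma called 98.1% of the listed rows, which had been selected on the same libraries, so this is a description. In every listed row, repeats included (100%), both HP1a RNAi libraries lay on the same side of both GFP RNAi libraries, so a lack of overlap sets no repeat apart. An exact permutation test of 2 libraries against 2 cannot give a p below 0.33. In bulk RNA, a higher level in each cell and a larger share of cells with the transcript cannot be told apart.

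**Figure D1:**
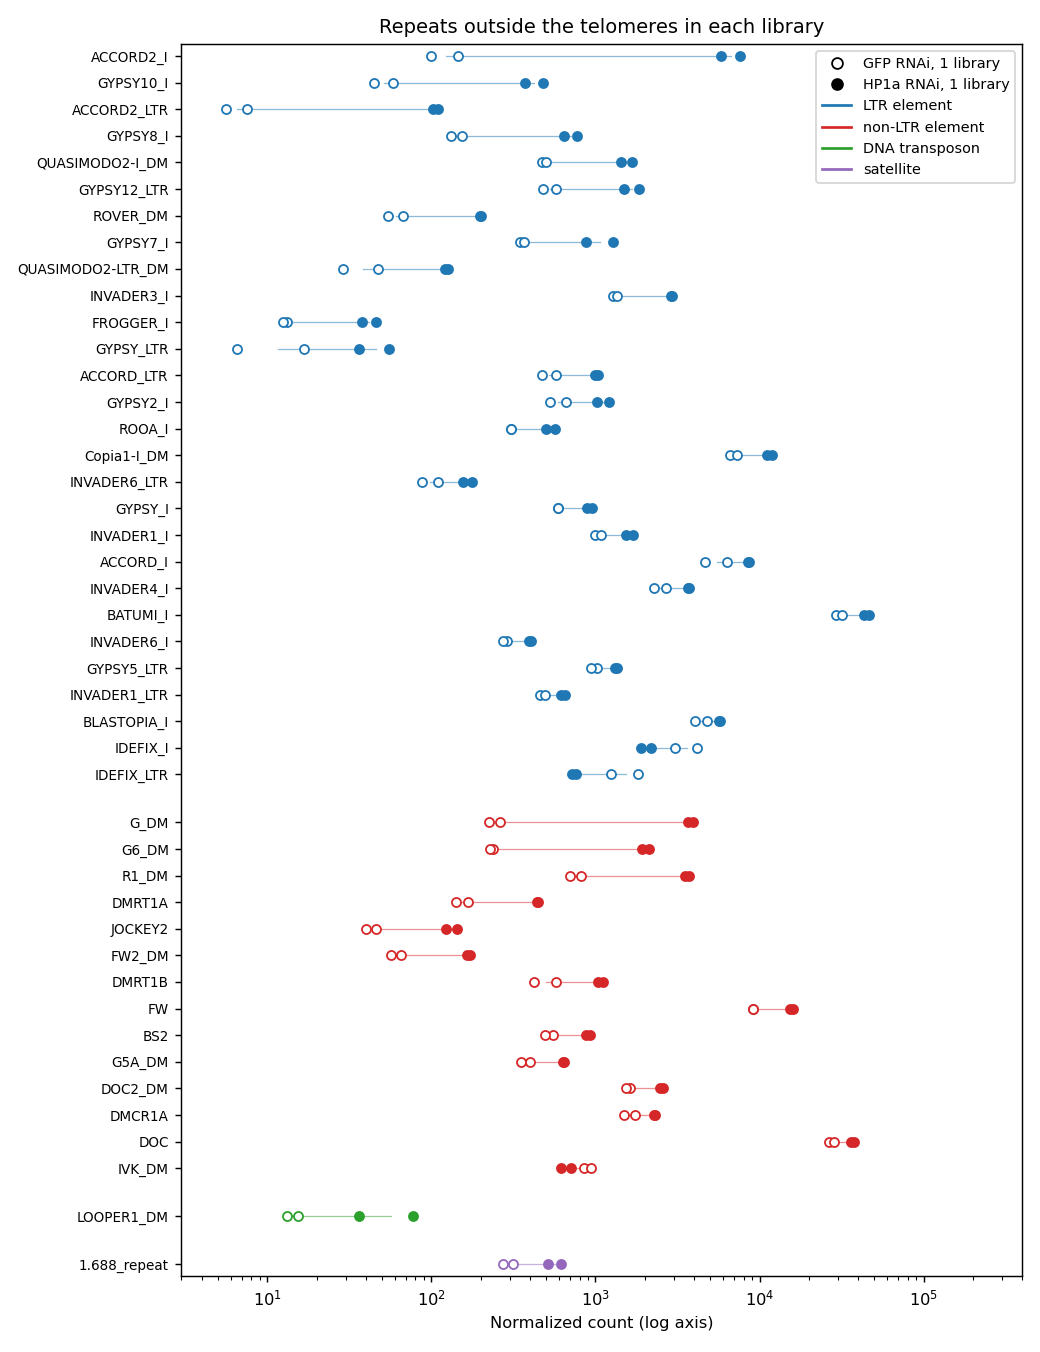
Normalized count (horizontal log axis) of each of the 44 repeats in each library, with open circles for the 2 GFP RNAi libraries, filled circles for the 2 HP1a RNAi libraries and a line between the group means; colour gives the class. Filled circles lie to the right of open circles for 41 repeats and to the left for IDEFIX_I, IDEFIX_LTR and IVK_DM.

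Among the LTR retrotransposons 26 of 28 rows rose and 2 fell, with a median ratio of means of 1.80-fold. The internal part of Accord2, ACCORD2_I, changed most of all 535 listed rows. Its normalized counts were 99.2 and 145 in GFP RNAi and 7640.5 and 5843 in HP1a RNAi, a 55.2-fold higher mean. The authors' log2 fold change was 5.08 with a standard error of 0.20, and limma gave 5.79 with a standard error of 0.23 (adjusted p = 0.00036). The terminal repeat of the same element, ACCORD2_LTR, had 7.49 and 5.57 in GFP RNAi against 102 and 110 in HP1a RNAi. Its control values rest on 8 and 4 reads, so the 16.2-fold ratio is imprecise, and the authors' log2 fold change was 2.57 with a standard error of 0.28. Both parts of Accord2 were low in the control libraries and stood far above them in both HP1a RNAi libraries.

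Accord, which shares its name stem with Accord2, had higher control counts and a smaller ratio. ACCORD_I had 4657 and 6307 normalized counts in GFP RNAi and 8558 and 8602 in HP1a RNAi, or 1.57-fold. ACCORD_LTR had 470 and 571 in GFP RNAi and 1036 and 987 in HP1a RNAi, or 1.94-fold. The control libraries differed from each other by more than the HP1a RNAi libraries did in both rows. The limma call of ACCORD_I was lost without either HP1a RNAi library (adjusted p = 0.0532 and 0.0595). Within a library, the internal part of Accord2 stood at 0.0213 and 0.023 of that of Accord in GFP RNAi and at 0.893 and 0.679 in HP1a RNAi. The internal part of Accord2 thus gained 35.5-fold on that of Accord, and the terminal repeat 8.17-fold, from 0.0159 and 0.00976 to 0.0981 and 0.112.

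The Gypsy rows all rose, by amounts that spread over a wide range. Gypsy is the fly's endogenous retrovirus, and the numbered names denote separate elements of its group. GYPSY10_I had 44.9 and 58.5 normalized counts in GFP RNAi and 370.2 and 479 in HP1a RNAi, or 8.21-fold. GYPSY8_I had 153 and 131 in GFP RNAi and 776 and 642 in HP1a RNAi, or 4.99-fold. These were the largest Gypsy changes, and the lower HP1a RNAi library was at least 4.19 times the higher GFP RNAi library in both. GYPSY12_LTR had 482 and 577 against 1845 and 1493, or 3.15-fold. GYPSY7_I had 348 and 367 against 1274 and 872, or 3.0-fold, with HP1a RNAi replicate 1 well above replicate 2.

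The other Gypsy rows changed less on the authors' log2 scale. GYPSY2_I had 527 and 663 normalized counts in GFP RNAi and 1018 and 1202 in HP1a RNAi, or 1.87-fold. GYPSY_I, the internal part of Gypsy itself, had 588.6 and 589.5 against 951 and 887, or 1.56-fold. GYPSY5_LTR had 1023 and 942 against 1358 and 1313, or 1.36-fold, and its limma call was lost without HP1a RNAi replicate 1 (adjusted p = 0.0509). The terminal repeat of Gypsy, GYPSY_LTR, had 6.55 and 16.7 in GFP RNAi and 36.3 and 55.2 in HP1a RNAi. Its control values came from 7 and 12 reads and differed 2.55-fold from each other. Its 3.93-fold ratio became 2.74-fold without GFP RNAi replicate 1 and 6.98-fold without GFP RNAi replicate 2.

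Idefix was the LTR element that fell, in both of its parts. IDEFIX_I had 3070.1 and 4156 normalized counts in GFP RNAi and 1886 and 2178 in HP1a RNAi, which was 1.78-fold lower. IDEFIX_LTR had 1245 and 1806 in GFP RNAi and 723 and 759.5 in HP1a RNAi, which was 2.06-fold lower. Idefix belongs to the gypsy group and, in ovarian somatic cells, is silenced through the flamenco piRNA locus. The authors' log2 fold changes were -0.76 and -0.93, with standard errors of 0.17 and 0.19, and limma gave adjusted p-values of 0.0138 and 0.0104. In both rows GFP RNAi replicate 2 was the higher control, and even the lower control library exceeded the higher HP1a RNAi library, by 1.41-fold and 1.64-fold.

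The Invader rows rose by similar, modest amounts, with INVADER3_I above the rest. INVADER3_I had 1281 and 1360.3 normalized counts in GFP RNAi and 2934 and 2876 in HP1a RNAi, or 2.20-fold. The other Invader rows rose between 1.33-fold (INVADER1_LTR) and 1.68-fold (INVADER6_LTR), the median of all 6 being 1.52-fold. INVADER1_LTR had 458 and 493 against 616 and 651, and its limma call did not hold when GFP RNAi replicate 1 (adjusted p = 0.0549) or HP1a RNAi replicate 2 (adjusted p = 0.0688) was left out. INVADER1_I had 997 and 1083 against 1700.2 and 1529.6, or 1.55-fold, and INVADER4_I had 2271 and 2699.7 against 3729.5 and 3650.2, or 1.48-fold. INVADER6_I had 289 and 272 against 407 and 391, or 1.42-fold, and INVADER6_LTR had 109 and 87.8 against 155 and 176. In each of these rows the 2 libraries of a group lay closer to each other than to the other group. The ratio of INVADER3_I to INVADER4_I was 0.564 and 0.504 in GFP RNAi and 0.787 and 0.788 in HP1a RNAi, so that INVADER3_I gained 1.47-fold on INVADER4_I.

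The remaining LTR elements all rose, between 1.30-fold and 3.29-fold. Quasimodo2 and Rover belong to the gypsy group. QUASIMODO2-I_DM had 469.7 and 498 normalized counts in GFP RNAi and 1429 and 1662 in HP1a RNAi, or 3.20-fold. QUASIMODO2-LTR_DM had 29.0 and 47.4 against 127 and 121, or 3.24-fold. ROVER_DM had 54.3 and 66.9 against 198 and 201, or 3.29-fold, with nearly equal HP1a RNAi libraries. The copia-type element Frogger, FROGGER_I, had 13.1 and 12.5 against 37.9 and 45.7, from 14 and 9 control reads, or 3.26-fold. BATUMI_I, with the highest normalized counts of the 44 rows, had 29065 and 31820.3 against 46159 and 43183, or 1.47-fold. Batumi and Roo are of the Bel-Pao group, and ROOA_I had 305 and 304 against 498 and 563, or 1.74-fold. Copia1-I_DM, an internal part of the copia type by its name, had 6602 and 7274 against 11070.0 and 11844, or 1.65-fold. BLASTOPIA_I showed the smallest increase of all, 1.30-fold, with 4030.1 and 4751 against 5722.5 and 5681. Its limma call held without GFP RNAi replicate 2 but was lost when any of the other libraries was left out (adjusted p = 0.101 without GFP RNAi replicate 1, and 0.091 without either HP1a RNAi library).

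Both parts were listed for 7 LTR elements, and the internal part and the terminal repeat moved in the same direction in each of them. The ratio of internal to LTR normalized counts within a library shows whether the parts moved equally, since it does not depend on the scaling of libraries. For Accord2 this ratio was 13.2 and 26 in GFP RNAi and 75.2 and 52.9 in HP1a RNAi. The internal part thus gained 3.26-fold on the terminal repeat. This gain was 2.46-fold without GFP RNAi replicate 1 and 4.83-fold without GFP RNAi replicate 2. For Gypsy the ratio was 89.9 and 35.2 in GFP RNAi and 26.2 and 16.1 in HP1a RNAi. That was a 2.96-fold shift toward the terminal repeat, and 1.67-fold without GFP RNAi replicate 1. The control values of ACCORD2_LTR and GYPSY_LTR came from 4 to 12 reads per library, and their part in the spread of these ratios was not tested. For Accord, Idefix, Invader1 and Invader6 the ratio moved by no more than 1.23-fold in either direction. The groups did not overlap, but for Invader6 they nearly touched, at 2.641 in GFP RNAi replicate 1 and 2.625 in HP1a RNAi replicate 1. These small shifts were not tested. For Quasimodo2 the libraries of the groups overlapped, with ratios of 16.2 and 10.5 in GFP RNAi and 11.3 and 13.7 in HP1a RNAi.

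**Figure D2:**
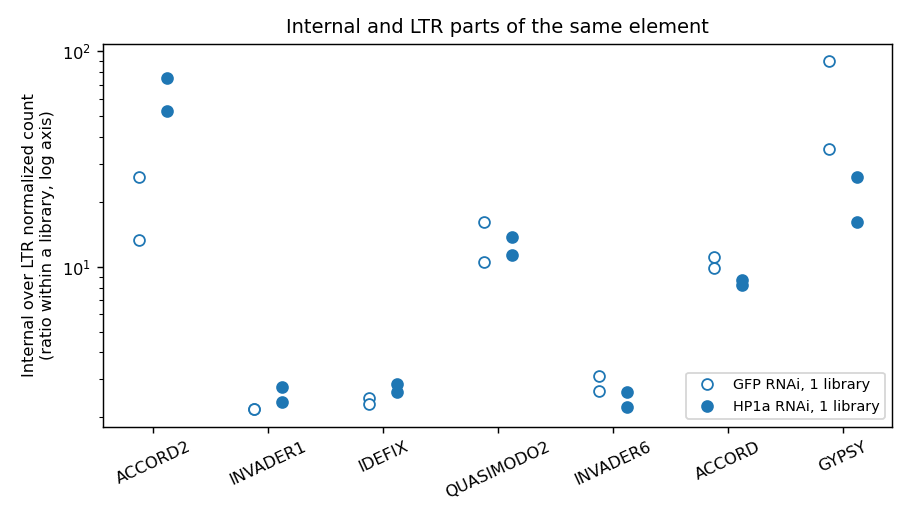
Ratio of internal to LTR normalized counts within each library (vertical log axis) for the 7 LTR elements with both parts listed; open circles are the 2 GFP RNAi libraries and filled circles the 2 HP1a RNAi libraries. Filled circles lie above the open ones for ACCORD2, INVADER1 and IDEFIX, below them for INVADER6, ACCORD and GYPSY, and among them for QUASIMODO2.

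Among the non-LTR retrotransposons 13 of 14 rows rose and 1 fell, with a median ratio of means of 1.93-fold. The jockey group, to which the G, F, Doc, BS and Jockey elements belong, made up 9 of these rows, and all 9 rose. G_DM had 260.1 and 223 normalized counts in GFP RNAi and 3935 and 3649 in HP1a RNAi, or 15.7-fold. The authors' log2 fold change was 3.79 with a standard error of 0.12, and limma gave 3.97 with a standard error of 0.12 (adjusted p = 0.000237). G6_DM had 237 and 227 in GFP RNAi and 2132 and 1934 in HP1a RNAi, or 8.76-fold. The control and RNAi libraries of both elements were tightly grouped and lay at least 8.17-fold apart.

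The remaining G element row, G5A_DM, changed much less. It had 351 and 400.0 normalized counts in GFP RNAi and 629.9 and 642 in HP1a RNAi, or 1.69-fold. Relative to G5A_DM within a library, G_DM rose from 0.741 and 0.557 to 6.25 and 5.68, and G6_DM rose from 0.675 and 0.568 to 3.38 and 3.01. On G5A_DM, G_DM thus gained 9.18-fold and G6_DM 5.15-fold. These pairs were chosen after their values were seen, so the lack of overlap between the groups is only a description. G_DM also gained 1.79-fold on G6_DM, with ratios of 1.10 and 0.982 in GFP RNAi and 1.85 and 1.89 in HP1a RNAi.

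The same kind of spread appeared in the F and Doc elements, at smaller size. FW, the first F element row, had 9174 and 9161 normalized counts in GFP RNAi and 15967 and 15307 in HP1a RNAi, or 1.71-fold. FW2_DM, its relative with low counts, had 65.5 and 57.1 against 172 and 166, or 2.75-fold, so that it gained 1.61-fold on FW. DOC had 26385 and 28438 against 37681 and 35969.7, or 1.34-fold, and its limma call was lost without HP1a RNAi replicate 1 (adjusted p = 0.0574). DOC2_DM had 1615 and 1532 against 2457 and 2592, or 1.60-fold. In both pairs the numbered row, which had the lower counts, had the larger ratio, and it gained 1.19-fold on its partner in the Doc pair. JOCKEY2 rose 3.09-fold, from 40.2 and 46.0 to 144 and 123, and BS2 rose 1.73-fold, from 550.2 and 493 to 878 and 923.

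R1_DM and its relatives also rose. R1 inserts at a fixed site in the genes for the large ribosomal RNA and is transcribed along with them when it is active, and the Rt1 elements (DMRT1A and DMRT1B) belong to the same group. R1_DM had 818 and 704 normalized counts in GFP RNAi and 3709 and 3527 in HP1a RNAi, or 4.76-fold. DMRT1A had 167 and 142 against 441 and 446, or 2.88-fold, and DMRT1B had 578 and 424 against 1039.6 and 1119, or 2.15-fold. R1_DM gained 1.65-fold on DMRT1A, with ratios of 4.91 and 4.95 in GFP RNAi and 8.41 and 7.90 in HP1a RNAi. The selection of polyadenylated RNA leaves out transcripts without a tail, so these values describe only the tailed RNA of each repeat.

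The CR1-type element DMCR1A rose 1.42-fold, from 1489.7 and 1729.6 to 2295 and 2285. Ivk, a relative of the I element, was the non-LTR element that fell. IVK_DM had 856 and 934 normalized counts in GFP RNAi and 617 and 708 in HP1a RNAi, which was 1.35-fold lower. Its authors' log2 fold change was -0.41 with a standard error of 0.13, and the limma call (adjusted p = 0.0198) did not hold when GFP RNAi replicate 2 (adjusted p = 0.0715) or HP1a RNAi replicate 1 (adjusted p = 0.0834) was left out.

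**Figure D3:**
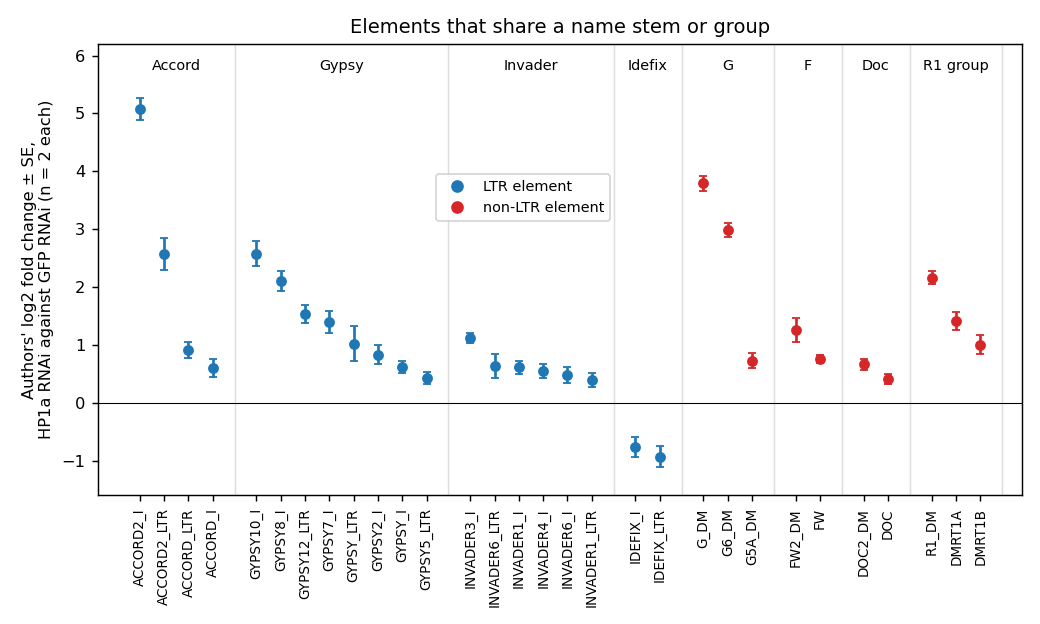
The authors' log2 fold change of HP1a RNAi against GFP RNAi (vertical axis; error bars are the authors' standard errors, n = 2 libraries each) for rows that share a name stem or group, blue for LTR and red for non-LTR elements. Within the Accord and G rows the changes differ most, from 0.60 to 5.08 and from 0.73 to 3.79, whereas the Invader rows lie between 0.40 and 1.12 and both Idefix rows lie below 0.

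The DNA transposon and the satellite were each represented by a single row. LOOPER1_DM, of the piggyBac group, had 13.1 and 15.3 normalized counts in GFP RNAi and 36.3 and 77.1 in HP1a RNAi. Its control values came from 14 and 11 reads, and the HP1a RNAi libraries differed 2.12-fold from each other, so the 3.99-fold ratio fell to 2.55-fold without HP1a RNAi replicate 2. The satellite row 1.688_repeat, whose arrays lie mainly in the pericentromeric heterochromatin of the X chromosome, had 316 and 275 in GFP RNAi and 619 and 516 in HP1a RNAi. This was 1.92-fold higher, with an authors' log2 fold change of 0.87 and a standard error of 0.16 (limma adjusted p = 0.00545).

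The size of the increase went along with the control level. Of the repeats with a mean of fewer than 100 normalized counts in GFP RNAi, all 10 rose, with a median ratio of 3.27-fold. Between 100 and 1000 normalized counts, 20 of 21 rose, with a median of 2.05-fold among these 20. From 1000 upward, 11 of 13 rose, with a median of 1.55-fold among these 11. Spearman's rho between control level and log2 ratio was -0.71 over the 41 higher repeats and -0.81 over the 305 higher genes of the same table. The same control libraries enter both measures, and the smallest ratio listed among higher genes was itself 1.63-fold, 1.26-fold and 1.15-fold in these bands. A like decline was therefore present in the genes, with medians of 2.39-fold, 1.67-fold and 1.31-fold, each below that of the repeats in the same band.

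**Figure D4:**
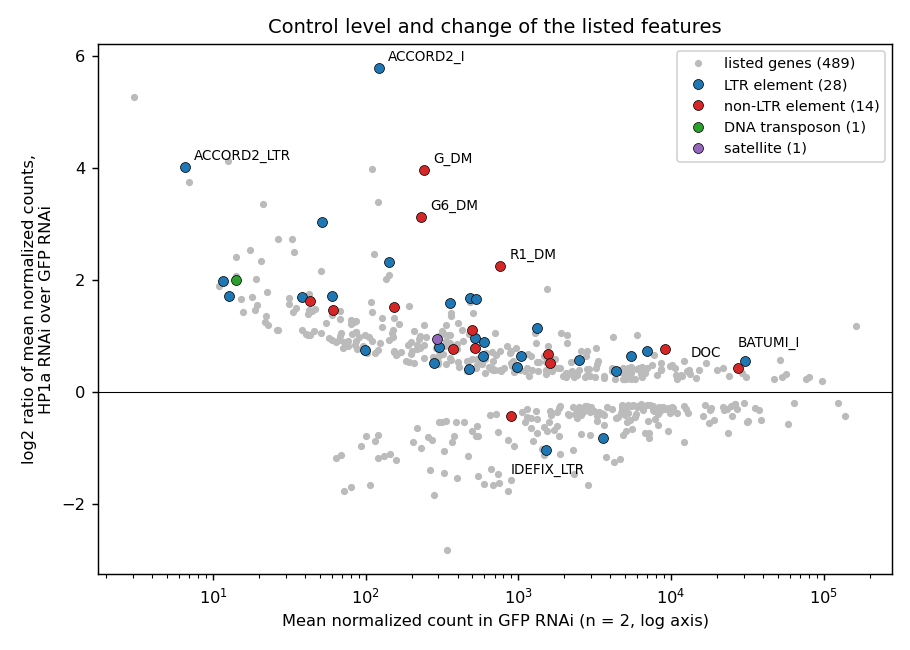
Mean normalized count in GFP RNAi (horizontal log axis, n = 2) against the log2 ratio of mean normalized counts, HP1a RNAi over GFP RNAi (vertical axis), for the 489 listed genes in grey and the 44 repeats in colour by class. Features with low control counts have the larger ratios; ACCORD2_I, G_DM, G6_DM and R1_DM lie above most genes of like control count, while the abundant BATUMI_I and DOC lie close to 0.5.

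In summed normalized counts, rows with high control counts supplied much of the change, beside a few rows with large ratios. The 44 repeats together had 101612 and 111906 normalized counts in GFP RNAi and 175107 and 167985 in HP1a RNAi, or 1.61-fold. The sum of the LTR rows rose 1.59-fold, from 58696 and 67105.5 to 102356 and 97999.8. The sum of the non-LTR rows rose 1.62-fold, from 42586 and 44510.3 to 72095 and 69392. Longer elements collect more reads and no lengths were used, so shares of the sum are shares of reads. BATUMI_I and DOC made up 28.5% and 25.7% of the control sum, and they supplied 22.0% and 14.5% of the gain. ACCORD2_I went from 0.114% of the sum to 3.93% and supplied 10.2% of the gain. Centred on the median listed gene, the limma log2 changes were 0.17 for BATUMI_I, 0.044 for DOC and 5.41 for ACCORD2_I. BATUMI_I and DOC were then not called. The listed genes were themselves selected as changed, 305 higher and 184 lower, so centring on them does not test the scaling of libraries. Without DOC, the sum of the non-LTR rows rose 2.10-fold.

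Genes that silence repeats were looked up in the same table, in lists chosen with earlier results known. The lists hold older and current symbols, so the same gene can appear under different names, and the number of symbols tested is not known. Of 31 symbols for nuclear and piRNA silencing, 4 were listed, 3 higher and 1 lower. Among all features tested 6.46% were listed, a share of features that cannot be compared directly with a share of symbols. The Argonaute gene aub, whose product cuts transposon RNA in the germ line, had 10450.1 and 10931 normalized counts in GFP RNAi and 14418 and 14158 in HP1a RNAi, or 1.34-fold. The RNA helicase gene vas had 21.5 and 19.5 against 110.5 and 97.1, or 5.06-fold, and the Tudor domain gene tej rose 1.32-fold. AGO3, which works with aub in piRNA amplification, had 4101 and 6079 against 3034 and 3268.5, which was 1.62-fold lower. Of 9 symbols for silencing by small interfering RNA, the route through AGO2 and Dcr-2 in somatic cells, 0 were listed. Of 34 heterochromatin symbols 3 were listed: the HP1a gene itself and the lamin gene Lam (1.23-fold) were lower, and HP1D3csd was 1.65-fold higher.

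Markers of the cells the culture could hold were read in the same way. Of 12 haemocyte marker symbols 2 were listed, both higher, where 4.18% of all features tested were listed as higher and 6.46% in either direction. The number of symbols tested in each marker list is not known, so these counts are descriptions. Pxn, the peroxidasin gene, had 186823 and 140994 normalized counts in GFP RNAi and 406768 and 334267 in HP1a RNAi, and lz, a transcription factor of crystal cells, had 15.9 and 12.5 against 34.7 and 84.7. Of 10 germ line markers 3 were listed, all higher: vas, zpg (1.34-fold) and osk (2.63-fold, from 44.0 and 40.4 to 112 and 109). Of 8 ovarian follicle cell markers 0 were listed. The levels of unlisted markers were not analysed here, and the part of these cell type genes in the change of the repeats was not tested.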

How the data were processed

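Per the submitters' processing notes, TopHat, Bowtie and DESeq2 were used, without versions or roles. The genome build and the treatment of reads with several matches are not given in the sources used here. Related repeats may therefore share reads. Per the file headers, the deposited signal columns hold normalized counts per feature. Division by a size factor of each library was inferred from the values. Each value was a whole number of equal steps per library (100% within 0.1 steps), taken as reads; the 44 repeats held between 4 and 57230 reads per library, and the median listed row between 745 and 1391. The total depth is unknown. Since these reads are inferred from the steps, they are quoted as depth and no count test was made. The log2 fold changes and standard errors, the score (their quotient) and the p-values are the authors' deposited ones. For 3 repeats the deposited p-value was listed as 0. The log2 ratio of means exceeded the authors' log2 fold change between 1.01 and 1.94 times, most in low rows.

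Limma 3.58.1 (R 4.3.3) was fitted to log2(normalized count + 1) over all 535 rows of the HP1a table, with Benjamini-Hochberg adjustment and a minimum mean of 1, which removed 0 repeats. On this scale the folds of low rows come out too small. Folds are ratios of mean normalized counts. The numbers of features tested come from ranks in the deposited adjusted p-values. Other software was matplotlib 3.10.9, pandas 2.3.3, numpy 2.4.6 and scipy 1.17.1 under Python 3.11.15. The repeats and gene lists were chosen with earlier results of these data known. Values per library are given for the 10 largest increases, all decreases, elements with both parts, the DNA transposon, the satellite, the 5 smallest changes and rows whose limma call depended on 1 library, with further rows added. Pairs of related elements were chosen after their values were seen. Classes of rows without a telling suffix came from general knowledge of the element names, since the data do not annotate them. Repeat sequences were not used here.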

Additional observations from a re-analysis of the deposited data

How the results depend on the processing

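Limma called 41 repeats higher and 3 lower. These numbers were the same with pseudocounts of 0.1 and 5, without a filter and with the replicate block. Of all 535 listed rows, selected on the same libraries, limma called 98.1%, so the stable counts are a description. The replicate numbers are not stated to pair libraries; deviations of same-numbered libraries correlated at 0.24 over the listed rows. Leaving out 1 library gave 37 to 41 higher and 2 or 3 lower; a lone library is then assumed to vary like the others. The 6 repeats that lost the call had adjusted p-values from 0.0509 to 0.101. A minimum mean of 100 left 35 higher and 3 lower, and merged internal and LTR rows gave 35 and 2. Requiring a log2 change of at least 1 left 20 higher and 1 lower. At an adjusted p below 0.01 limma left 31 higher and 0 lower (3 lower at an unadjusted p below 0.05, and 2 by the authors' adjusted p below 0.01). The median log2 change was 0.92, moving to 0.78 with a minimum mean of 100 and 0.85 on the authors' scale. Without its largest row the non-LTR sum rose 2.10-fold in place of 1.62-fold. The Quasimodo2 ratio of internal to LTR counts changed 0.938-fold, and 0.773-fold to 1.19-fold without single libraries. Scaling could not be redone without unlisted features. Centring on the median listed gene, chosen after seeing the data, shifted all log2 changes by 0.38 and gave a median of 0.54. It left 29 higher and 3 lower, and BLASTOPIA_I turned to -0.000613. The listed genes were themselves selected as changed, so centring on them does not test the scaling. The cause of calls lost without a library was not tested.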

Other observations

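The repeats varied more between the control libraries than the listed genes did. The median difference between the 2 GFP RNAi libraries was 1.16-fold over the 44 repeats and 1.09-fold over 489 genes, whereas between the 2 HP1a RNAi libraries it was 1.07-fold and 1.08-fold. GFP RNAi replicate 2 was the higher control for 27 of the 44 repeats and for 255 of the 489 genes. Only GYPSY_LTR in GFP RNAi and LOOPER1_DM in HP1a RNAi differed by over 2-fold between libraries of a group. The median control level was 492 normalized counts for the repeats and 1175 for the genes. No comparison at like control level was made, and these differences between libraries were not tested.

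Among the 10 largest increases of the whole table on the authors' scale, 5 were repeats and 5 were genes, and among the 50 largest, 15 were repeats and 35 were genes, where repeats made up 8.22% of the listed rows. This is a description of rows that were selected on the same libraries.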
